A study of Rattus norvegicus with 12 samples.

Results

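The core circadian clock genes were described in RNA from rat joint tissue. The set holds 10 genes chosen by name: Bmal1 (also called Arntl), Clock and Npas2 as activators, Per1, Per2, Per3, Cry1 and Cry2 as repressors, and Nr1d1 and Nr1d2, which encode the nuclear receptors REV-ERB alpha and beta. All 10 of 10 were found among 23144 genes listed in at least 1 of the deposited tables, and all 10 passed the filter on low values in each comparison. The 12 libraries fall into 4 labelled treatment, 4 labelled model and 4 labelled sham. The series title names knee osteoarthritis and acupuncture at points around the knee, and the labels describe the groups no further. The sources used here give no strain, age, way of making the model, course of the treatment or hour of tissue collection. Nothing in the labels ties a replicate to an animal of its own, so the p-values reflect spread among libraries, which may be technical.

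The circadian clock is a feedback loop of transcription that most cells run. A dimer of BMAL1 with CLOCK or its relative NPAS2 binds E-boxes and switches on the Per, Cry and Nr1d genes; PER and CRY proteins then block the dimer. In a second loop, REV-ERB proteins repress Bmal1, Npas2 and, more weakly, Clock through ROR response elements (ROREs), which the ROR activators also bind. In a cycling tissue, Bmal1 and Npas2 transcripts therefore peak at other hours than those of Nr1d1 and Nr1d2. A shift of phase can move these sides of the loop in opposite directions or in the same one, depending on the hour of collection. In cartilage and other joint tissues of the mouse, the clock is known to cycle and to time matrix turnover.

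Promoter windows of the members were searched for the motifs through which the arms of the loop act. RefSeq windows in build GRCr8, running from 250 bases before to 50 bases after an annotated start, were matched for 9 of the 10 members by symbol, in 11 windows. Motifs were searched on both strands: E-box CACGTG, the variant E'-box CACGTT, D-box TTANGTAA (bound by DBP, TEF, HLF and NFIL3), RORE TNGGTCA and cAMP response element TGACGTCA. Windows of 4 members held a match. Printed here are a window for Bmal1, the RORE-driven activator, a window for Per2, an E-box repressor, and the window of Nr1d1 that holds the canonical E-box, with each match in capitals.

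Bmal1, chr1:176766078-176766377, plus strand: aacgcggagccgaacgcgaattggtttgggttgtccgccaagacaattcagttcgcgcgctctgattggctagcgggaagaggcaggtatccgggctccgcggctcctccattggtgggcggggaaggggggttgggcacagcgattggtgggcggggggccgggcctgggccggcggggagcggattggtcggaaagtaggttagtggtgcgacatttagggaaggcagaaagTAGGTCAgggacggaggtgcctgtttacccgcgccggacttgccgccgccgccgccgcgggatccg
Per2, chr9:99496944-99497243, minus strand: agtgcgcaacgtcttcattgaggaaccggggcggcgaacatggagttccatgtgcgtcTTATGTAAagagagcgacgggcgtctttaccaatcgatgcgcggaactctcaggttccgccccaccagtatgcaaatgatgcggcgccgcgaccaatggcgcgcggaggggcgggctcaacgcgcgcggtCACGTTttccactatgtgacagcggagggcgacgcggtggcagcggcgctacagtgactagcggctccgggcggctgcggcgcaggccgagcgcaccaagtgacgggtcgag
Nr1d1, chr10:84229405-84229704, minus strand: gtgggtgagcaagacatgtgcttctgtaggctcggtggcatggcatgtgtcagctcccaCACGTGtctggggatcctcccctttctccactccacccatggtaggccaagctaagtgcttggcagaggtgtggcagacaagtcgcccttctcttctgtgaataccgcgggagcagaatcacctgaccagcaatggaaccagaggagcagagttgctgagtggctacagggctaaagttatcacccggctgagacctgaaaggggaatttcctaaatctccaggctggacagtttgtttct

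The Bmal1 window held a RORE match, TAGGTCA, whose first base lies at position -16 from the start. Among 33469 rat windows of this length, 11.1% held the RORE letters. In the Per2 window a D-box match began at position -192 and an E'-box match at -62, motifs held by 2.24% and 4.83% of all windows. The E-box of Nr1d1 began at position -191 of the more downstream of its annotated starts, and 6.42% of all windows held it. The more upstream Nr1d1 window and the Cry2 window each held an E'-box, at -174 and -212. No window of a member held the cAMP response element, found in 1.83% of all windows. These matches describe letters and not binding, which was not measured.

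Libraries differed in tissue makeup, which bears on each result that follows. Recovered reads per library numbered 15513116 to 17218402. Markers of the labelled tissue were present: all 8 chondrocyte markers summed to 1587 to 18930 CPM (counts scaled to a common library size) in treatment, 1367 to 3457 in model and 1094 to 2174 in sham. Blood-forming marrow markers were far lower in treatment. The 10 erythroid markers summed to 9.47 to 116 CPM there, against 2533 to 10013 in model and 3410 to 5328 in sham, and 11 neutrophil markers to 7.51 to 204, against 3797 to 14041 and 14305 to 23916. Fibroblast and collagen markers (8 of 8 measured) summed to 52975 to 124571 in treatment, 18466 to 44546 in model and 10223 to 27286 in sham. Skeletal muscle markers (16 of 18 measured) reached 68625 in treatment 2, 38267 in sham 2 and 34002 in sham 4, and no marker of these lists was at 0 in all 4 libraries of a group. In bulk tissue, fewer cells of a type and less RNA per cell cannot be told apart, and the part of these shifts in the clock results was not tested.

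**Figure D1:**
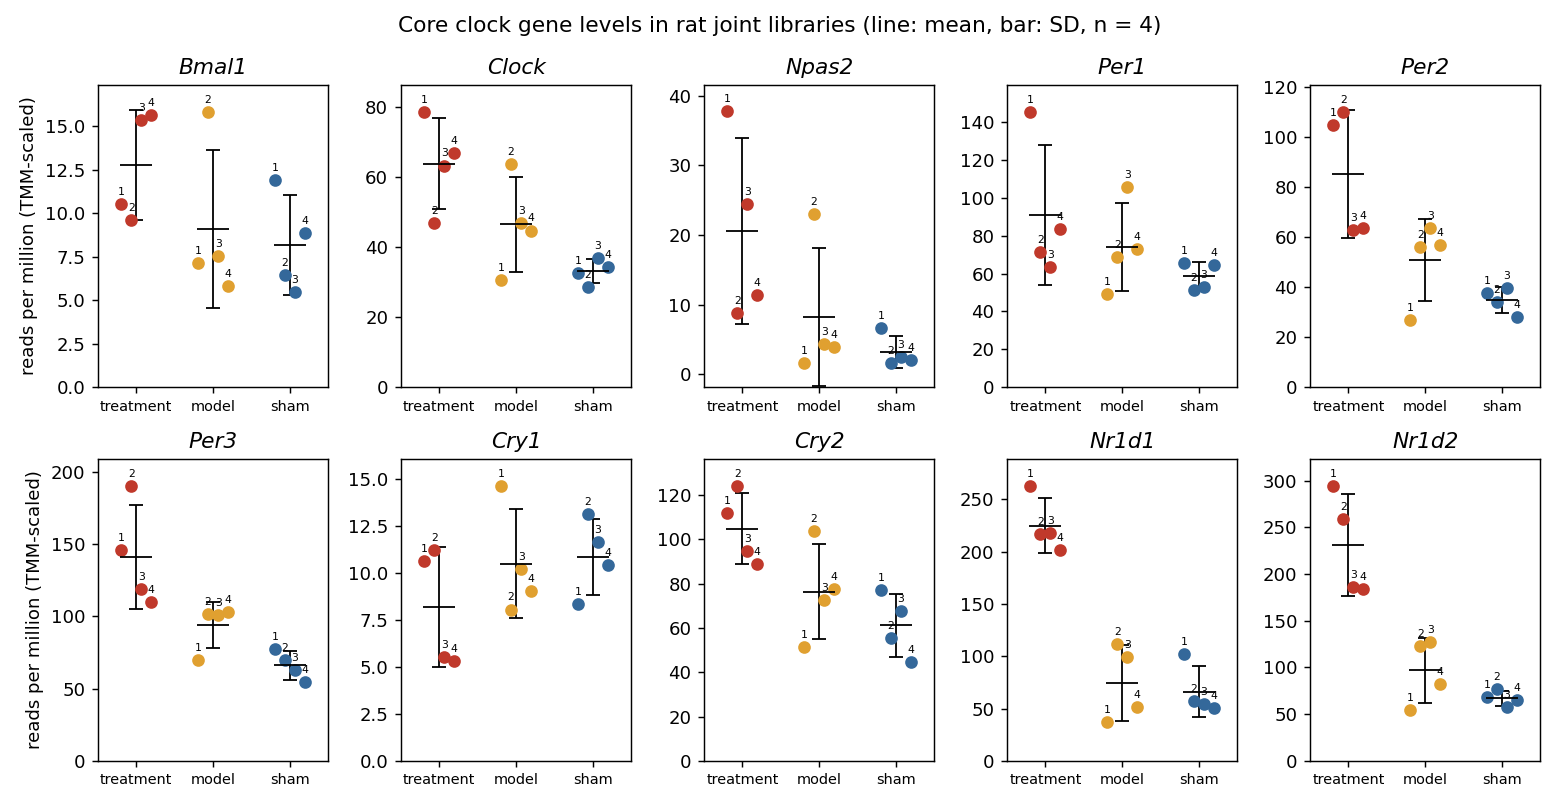
Levels of the 10 core clock genes in every library, as CPM scaled by TMM over the 12 libraries, with points numbered by replicate, a line at the group mean and a bar of 1 SD (n = 4 each). All 4 treatment libraries of Nr1d1 sit between 202 and 263, above every model and sham library.

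The REV-ERB genes differed most plainly. Levels are counts per library relative to the library's size (CPM), scaled over the 12 libraries by the TMM method. Nr1d1 (chromosome 10, 83728318 to 83735705, build mRatBN7.2) stood at 263, 217, 218 and 202 CPM in treatment 1 to 4, at 37.1, 112, 99.3 and 51.1 in model 1 to 4, and at 103, 56.9, 54.5 and 50.6 in sham 1 to 4. Every treatment library lay above every other library, while model and sham overlapped. Nr1d1 rose in treatment against sham by 1.81 ± 0.22 (log2 fold change ± SE of limma on the log2(normalised value + 1) scale, n = 4 per group, adjusted p = 0.000275) and in treatment against model by 1.73 ± 0.34 (adjusted p = 0.0136). Its model against sham value was 0.11 ± 0.38 (adjusted p = 0.914).

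Nr1d2, the paralogue with the same repressor role (chromosome 15, 7524257 to 7550553), stood at 294, 259, 186 and 184 CPM in treatment, at 54.7, 123, 127 and 82.3 in model and at 68.0, 77.3, 57.7 and 65.0 in sham. Here too all treatment libraries were highest, and treatment 1 and 2 lay above treatment 3 and 4. Nr1d2 rose by 1.76 ± 0.19 against sham (adjusted p = 0.000149) and by 1.31 ± 0.30 against model (adjusted p = 0.0241). Nr1d1 shares 1619 bases at its end with Thra, a thyroid hormone receptor gene on the opposite strand, and with no statement on strand in the counting, reads of the pair cannot be told apart there. Thra had 58.1 to 70.7 CPM in treatment, 40.0 to 81.4 in model and 41.6 to 68.5 in sham, and its limma differences were 0.27 against sham (adjusted p = 0.235) and 0.22 against model (adjusted p = 0.538).

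In the activator arm, Npas2 and Clock rose against sham and Bmal1 did not pass. Npas2, the partner of BMAL1 that can replace CLOCK (chromosome 9, 41463830 to 41642320), stood at 37.8, 8.79, 24.5 and 11.4 CPM in treatment, at 1.66, 23.0, 4.34 and 3.90 in model and at 6.67, 1.61, 2.52 and 2.03 in sham. All treatment libraries exceeded all sham libraries, and model 2 lay among the treatment values. Npas2 rose by 2.65 ± 0.55 against sham (limma adjusted p = 0.00498), the largest fold change of the 10 members, and its difference from model was 1.78 ± 0.78 (adjusted p = 0.158).

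Clock, the usual partner of BMAL1 and a histone acetyltransferase (chromosome 14, 31908566 to 31990400), stood at 78.6, 46.9, 63.4 and 66.9 CPM in treatment, at 30.6, 63.9, 46.9 and 44.8 in model and at 32.7, 28.7, 37.0 and 34.5 in sham. The treatment and sham ranges did not overlap. Clock rose by 0.92 ± 0.18 against sham (adjusted p = 0.00347) and differed from model by 0.49 ± 0.25 (adjusted p = 0.210).

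Bmal1, the partner that both dimers need (chromosome 1, 167331633 to 167430231), stood at 10.5, 9.62, 15.4 and 15.6 CPM in treatment, at 7.14, 15.8, 7.51 and 5.82 in model and at 11.9, 6.43, 5.45 and 8.88 in sham. Its groups overlapped, with model 2 above every treatment library and sham 1 above treatment 1 and 2. The limma differences were 0.67 ± 0.29 against sham (adjusted p = 0.100) and 0.58 ± 0.34 against model (adjusted p = 0.277). Without sham 1 the first was 0.86 (adjusted p = 0.0394), and without model 2 the second was 0.89 (adjusted p = 0.0430), so the call on Bmal1 turned on those libraries.

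Among the Period genes, Per2 and Per3 rose against sham and Per1 did not pass. Per2 (chromosome 9, 92007296 to 92049459) stood at 105, 110, 62.9 and 63.5 CPM in treatment, at 26.7, 55.8, 63.6 and 56.8 in model and at 37.7, 33.9, 39.5 and 28.0 in sham. Treatment 1 and 2 stood well above the rest, while treatment 3 and 4 lay beside model 3. Per2 rose by 1.25 ± 0.22 against sham (adjusted p = 0.00219), and its difference from model was 0.78 ± 0.32 (adjusted p = 0.137).

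Per3, a repressor of lesser weight in the loop, stood at 146, 190, 119 and 110 CPM in treatment, at 69.9, 101.5, 101.1 and 102.8 in model and at 77.5, 69.5, 62.9 and 54.3 in sham. It was the only repressor whose treatment range lay wholly above both other ranges. Per3 rose by 1.07 ± 0.19 against sham (adjusted p = 0.00235), and its difference from model was 0.58 ± 0.22 (adjusted p = 0.107).

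Per1, which hormones and immediate early signals also induce, stood at 145, 71.7, 63.4 and 83.5 CPM in treatment, at 49.1, 68.7, 106 and 73.2 in model and at 65.4, 51.2, 53.0 and 64.8 in sham. Treatment 1 alone was far above the others of its group, and the groups overlapped. The limma differences were 0.56 ± 0.25 against sham (adjusted p = 0.112) and 0.28 ± 0.31 against model (adjusted p = 0.575).

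The Cryptochromes parted in sign. Cry2 (chromosome 3, 78374995 to 78404965) stood at 112, 124, 94.7 and 89.0 CPM in treatment, at 51.4, 104, 72.4 and 77.7 in model and at 77.2, 55.4, 67.7 and 44.8 in sham. Every treatment library exceeded every sham library. Cry2 rose by 0.79 ± 0.19 against sham (adjusted p = 0.00970) and differed from model by 0.50 ± 0.23 (adjusted p = 0.172). Without treatment 2, sham 2 and sham 4, the libraries richest in muscle transcripts, the sham comparison of Cry2 gave 0.46 (adjusted p = 0.124).

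Cry1, the stronger repressor of the pair in mouse cells (chromosome 7, 18529823 to 18594091), stood at 10.6, 11.2, 5.54 and 5.29 CPM in treatment, at 14.6, 8.04, 10.2 and 9.02 in model and at 8.31, 13.1, 11.6 and 10.4 in sham. Treatment 3 and 4 were the lowest of the 12 libraries, while treatment 1 and 2 lay inside the sham range. It was the only member with a negative value against sham, -0.48 ± 0.31 (adjusted p = 0.257), and against model, -0.40 ± 0.33 (adjusted p = 0.448).

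**Figure D2:**
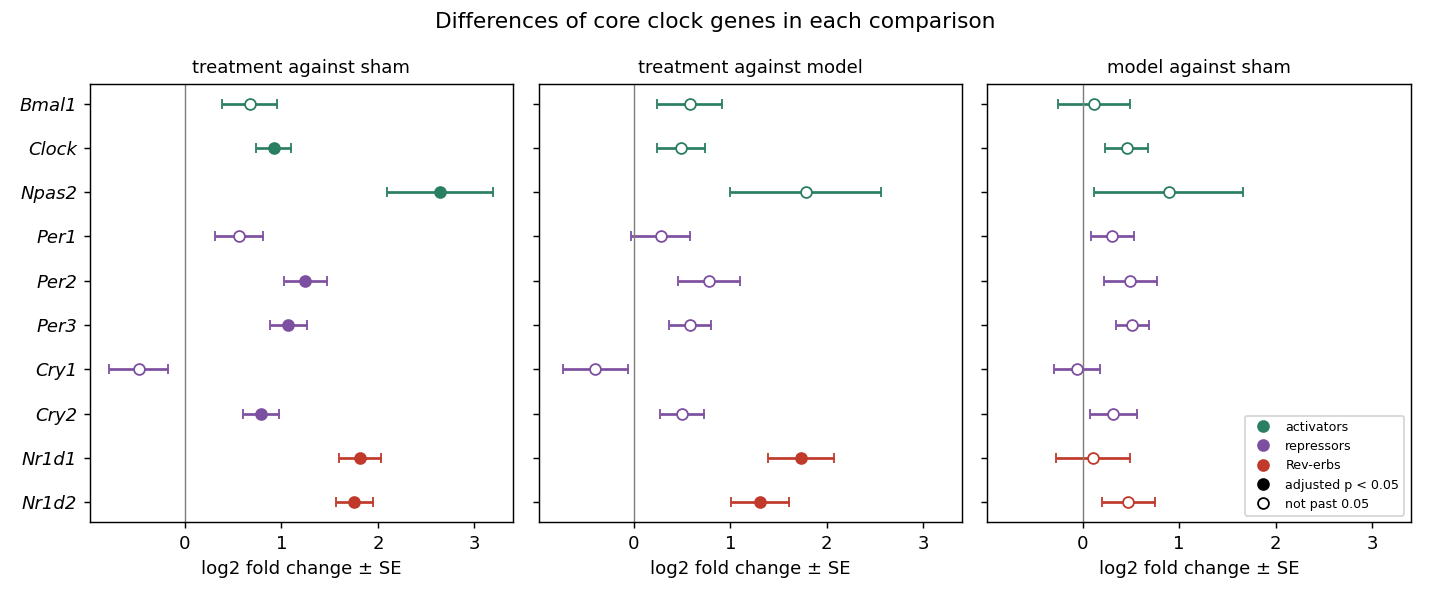
Log2 fold change ± SE of each member in treatment against sham, treatment against model and model against sham (limma, n = 4 per group), coloured by arm and filled where adjusted p is under 0.05. Against sham, 7 of 10 members are filled and all lie right of 0, with Npas2 at 2.65 and Cry1 alone left of 0.

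Counted over the set, 7 of 10 members rose in treatment against sham and 0 fell. Of 20352 genes tested 36.8% passed, 17.3% higher and 19.5% lower. The median log2 fold change of the members was 0.996, against -0.01 over all genes tested. Groups did not overlap for 7 members, all higher, where 16.9% of genes tested were higher without overlap and 19.8% lower. By arm, 2 of 3 activators, 3 of 5 repressors and 2 of 2 REV-ERB genes rose. In treatment against model 2 of 10 rose, both of them REV-ERB genes, and 0 fell. Of 20328 genes tested 14.1% passed, 3.6% higher and 10.5% lower, and the median was 0.58 for the members and 0.02 for all genes. Groups did not overlap for 3 members, all higher, where 8.51% of genes were higher without overlap and 13.7% lower. Without model 4 no member passed against model, since Nr1d1 then had an adjusted p of 0.0514 and Nr1d2 of 0.0804. Nr1d2 also missed the threshold without treatment 1 (0.0628). Limma-voom with quality weights called 5 members, where 2333 of 20328 genes were called higher and 3317 lower. Without model 2, 4 members passed, where 1360 of 20351 genes were called higher and 2786 lower. Over the 21 alternatives against model, the members added were activators: Npas2 in 3, Bmal1 in 2 and Clock in 2. No repressor was called in any of them. These comparisons share libraries, so their counts are not independent of each other.

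In model against sham 0 of 10 members passed in limma, edgeR, DESeq2 or limma-voom, where 0% of 20205 genes passed in limma. No member's groups were free of overlap, where 3.08% of genes were higher and 4.77% lower without overlap. At an unadjusted p under 0.05, limma had 1 member, edgeR 2, DESeq2 2 and limma-voom 4. Of the 20205 genes tested, 2618 were under that cut in limma, 2849 in edgeR, 3390 in DESeq2 and 4707 in limma-voom. The largest difference was that of Npas2 at 0.89 ± 0.77 (adjusted p = 0.617), and the smallest p was that of Per3 at 0.51 ± 0.17 (adjusted p = 0.334). Of the 10 values 9 were above 0, with a median of 0.39 against 0.03 over all genes. The model libraries were spread. Model 2 was the highest of its group for Bmal1, Clock, Npas2, Cry2 and Nr1d1, and model 1 was the lowest for 8 members: Clock, Npas2, Per1, Per2, Per3, Cry2, Nr1d1 and Nr1d2. Model 1 also had the most skeletal muscle transcripts of its group, at 1621 CPM against 77.0 to 116 in model 2 to 4. It was highest too for erythroid markers (10013 against 2533 to 6363) and cell division markers (2702 against 602 to 1776). For fibroblast and collagen markers it was lowest (18466 against 21680 to 44546). The part of each in its clock values was not tested. With the muscle score (the mean centred log2 level of the markers) as a covariate 9 of the 10 members changed sign, and only Per3 did not. Every model library has a lower muscle score than every sham library, so score and group are hard to separate in that fit. Per3 kept its sign in all 21 alternatives, but its lowest value among them was 0.00525.

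All limma calls on the members were upward, in the activator, repressor and REV-ERB arms against sham and in the REV-ERB arm against model. Limma-voom with quality weights called 9 members against sham, adding Bmal1 (0.98, adjusted p = 0.00599) and a lower Cry1 (-0.87, adjusted p = 0.0140). Of 20352 genes tested, that fit called 4835 higher and 4822 lower, more than limma did. With the hour of collection unknown, a difference of phase and a difference of level cannot be told apart. The ratio of Bmal1 to Nr1d1 reads, which no scaling of a library can alter, was lower in treatment. On the log2 scale it was -4.64, -4.50, -3.82 and -3.69 in treatment 1 to 4, -2.38, -2.83, -3.72 and -3.13 in model, and -3.11, -3.15, -3.32 and -2.51 in sham. Treatment lay below all sham libraries, and model 3 fell just inside the treatment range. That gap came from a larger value of Nr1d1 and not from a smaller one of Bmal1.

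Of the other ratios within a library, Cry1 over Per2 separated treatment from both other groups, and the rest did not. The log2 ratio of Cry1 to Per2 was -3.31, -3.29, -3.50 and -3.58 in treatment, -0.87, -2.79, -2.64 and -2.65 in model and -2.18, -1.37, -1.77 and -1.43 in sham. The treatment values were tightly grouped and below all others, although Cry1 and Per2 each varied within the treatment group. Npas2 over Clock, the log2 balance of the alternative partners of BMAL1, was -1.06, -2.42, -1.37 and -2.55 in treatment, -4.21, -1.48, -3.44 and -3.52 in model and -2.29, -4.16, -3.88 and -4.09 in sham. Treatment was higher than sham except for sham 1, and sham 1 and model 2 both lay inside its range. Bmal1 over Per2 overlapped, at -3.51 to -2.02 in treatment, -3.29 to -1.82 in model and -2.86 to -1.66 in sham. Npas2 over Nr1d1 overlapped too, at -4.63 to -2.80, -4.52 to -2.29 and -5.15 to -3.94. Cry1 over Cry2 was -4.10 to -3.40 in treatment, -3.69 to -1.82 in model and -3.22 to -2.08 in sham. Since the ratios were formed from members, they are given as a description without a test.

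**Figure D3:**
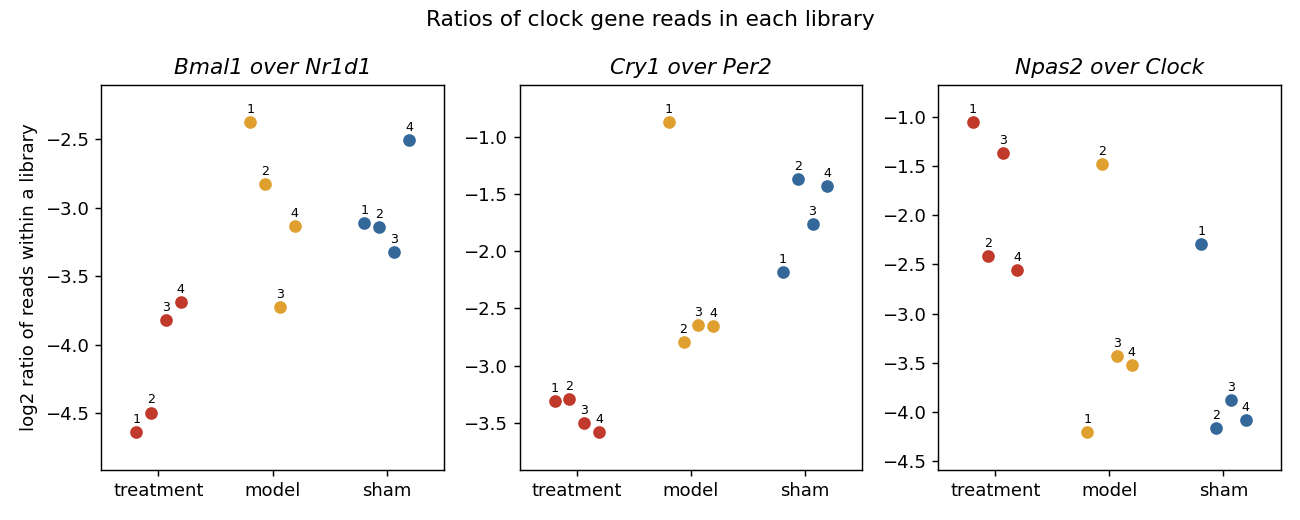
Log2 ratio of reads within each library for Bmal1 over Nr1d1, Cry1 over Per2 and Npas2 over Clock, with points numbered by replicate. Cry1 over Per2 lies between -3.58 and -3.29 in treatment, below every model and sham library.

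Within the treatment group the libraries fell into unequal patterns. Relative to each gene's mean over the 12 libraries, Bmal1 stood at 0.17, 0.04, 0.71 and 0.73 in treatment 1 to 4 on the log2 scale. Per2 had 1.02, 1.09, 0.29 and 0.30, and Nr1d2 1.40, 1.21, 0.74 and 0.73. Treatment 3 and 4 were thus higher than treatment 1 and 2 for Bmal1 and lower for Per2, Per3, Cry1, Cry2 and Nr1d2. Cry1 showed the widest gap, at 0.17 and 0.25 in treatment 1 and 2 and at -0.76 and -0.82 in treatment 3 and 4. Nr1d1 differed less, at 1.41, 1.14, 1.14 and 1.03. Npas2 and Clock followed another order, highest in treatment 1 and lowest in treatment 2. Muscle markers, at 125, 68625, 584 and 4825 CPM in treatment 1 to 4, did not split in this way. Erythroid markers (63.9, 66.9, 116 and 9.47) did not either. Macrophage markers (816, 638, 1863 and 1976) and cell division markers (82.4, 65.8, 127 and 141) were higher in treatment 3 and 4. Endothelial markers (910, 890, 814 and 746) were lower there. The part of tissue makeup in the order of the clock genes was not tested. That order was noticed in these values and has no test, and no hour of collection is known for any library.

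**Figure D4:**
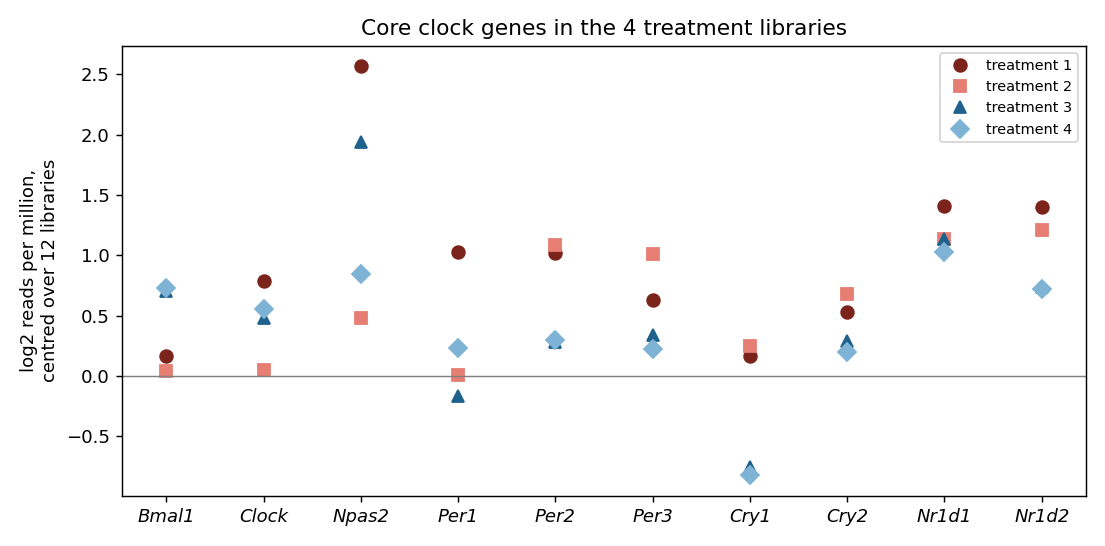
Log2 CPM of each member in the 4 treatment libraries, centred on the gene's mean over all 12 libraries. For Bmal1 treatment 3 and 4 lie at 0.71 and 0.73, above treatment 1 and 2, while for Per2, Cry1 and Nr1d2 they lie below.

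Levels were compared between members per kilobase of the deposited gene length. In treatment, Nr1d1 (65.5 ± 7.65 CPM per kilobase, mean ± SD, n = 4) and Nr1d2 (49.2 ± 11.6) formed a top tier whose ranges overlapped each other. A gap separated them from Cry2 (26.7 ± 4.09), Per1 (22.5 ± 9.19), Per3 (19.6 ± 4.98) and Per2 (14.6 ± 4.38), neighbours that overlapped. Clock followed at 8.39 ± 1.71, then Npas2 (4.82 ± 3.12), Bmal1 (3.93 ± 0.97) and Cry1 (2.79 ± 1.09), again with overlapping neighbours. In model the order began with Nr1d1 (21.8 ± 10.6), Nr1d2 (20.6 ± 7.39), Cry2 (19.4 ± 5.48) and Per1 (18.4 ± 5.80), whose ranges overlapped, and ended with Npas2 (1.92 ± 2.32). In sham Nr1d1 (19.3 ± 7.12), Cry2 (15.6 ± 3.61), Per1 (14.5 ± 1.86) and Nr1d2 (14.3 ± 1.73) overlapped at the top. Npas2 was last at 0.75 ± 0.55, below the range of Bmal1 (2.51 ± 0.88). The REV-ERB genes thus led every other member without overlap in treatment, and did not in model or sham.

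Likeness between profiles was measured as the root-mean-square difference of log2 CPM, each gene centred over the 12 libraries. Per2 and Per3 differed by 0.22, and Per3 ranked 3 among 12513 genes by closeness to Per2. Cry2 and Per3 differed by 0.21, and Nr1d1 and Nr1d2 by 0.34. Npas2 and Cry1 were far from all other members, their nearest being Nr1d1 at 0.79 and Per1 at 0.67. The nearest genes to Bmal1 outside the set were Prag1 (0.21), Ap3m2 (0.23) and Gadd45g (0.24), closer than its nearest member, Clock, at 0.42. Those nearest to Nr1d1 were Wdr54 (0.22), Dip2c (0.24) and Sestd1 (0.25). All libraries share the makeup differences given above, so many genes have like profiles.

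Targets of the loop were examined in a list of 10 output and auxiliary genes, of which 9 were matched. Against sham 7 of 8 tested rose and 1 fell, where 17.3% of all genes tested rose and 19.5% fell. Against model 7 of 9 rose and 1 fell, where 3.6% of all genes rose and 10.5% fell. In model against sham 0 of 9 passed, where 0% of all genes did. The list medians were 1.69, 1.54 and 0.07 in those 3 comparisons. Dbp, an E-box target that activates D-box genes, had 365, 412, 287 and 282 CPM in treatment, 49.5, 114, 149 and 86.3 in model and 104, 98.6, 81.6 and 77.6 in sham. All treatment libraries were above all others. Dbp rose by 1.88 ± 0.17 against sham (adjusted p = 6.20e-05) and by 1.85 ± 0.33 against model (adjusted p = 0.00828). Its relatives Tef (1.51 and 1.20) and Hlf (1.75 and 1.26) rose in both comparisons, as did Ciart (1.59 and 1.90), a repressor of the dimer.

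Nfil3, which represses the same D-boxes and is itself under a RORE in mouse, went the other way. It had 4.15, 5.40, 6.42 and 6.99 CPM in treatment, 16.1, 12.9, 12.5 and 20.01 in model and 23.3, 16.7, 20.8 and 22.5 in sham. Its treatment libraries were the lowest. The log2 fold change was -1.87 ± 0.22 against sham (adjusted p = 0.000220) and -1.40 ± 0.25 against model (adjusted p = 0.00842). Nfil3 and Dbp thus moved in opposite directions, while Bmal1, whose window holds a RORE, and Npas2 had positive differences in both comparisons. Bhlhe40 and Bhlhe41, which compete at E-boxes, rose by 2.17 and 2.59 against sham and by 2.13 and 2.67 against model. Rora, the activator that competes with REV-ERB proteins at ROREs, rose by 1.63 ± 0.30 against sham (adjusted p = 0.00258) and 1.54 ± 0.36 against model (adjusted p = 0.0242).

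**Figure D5:**
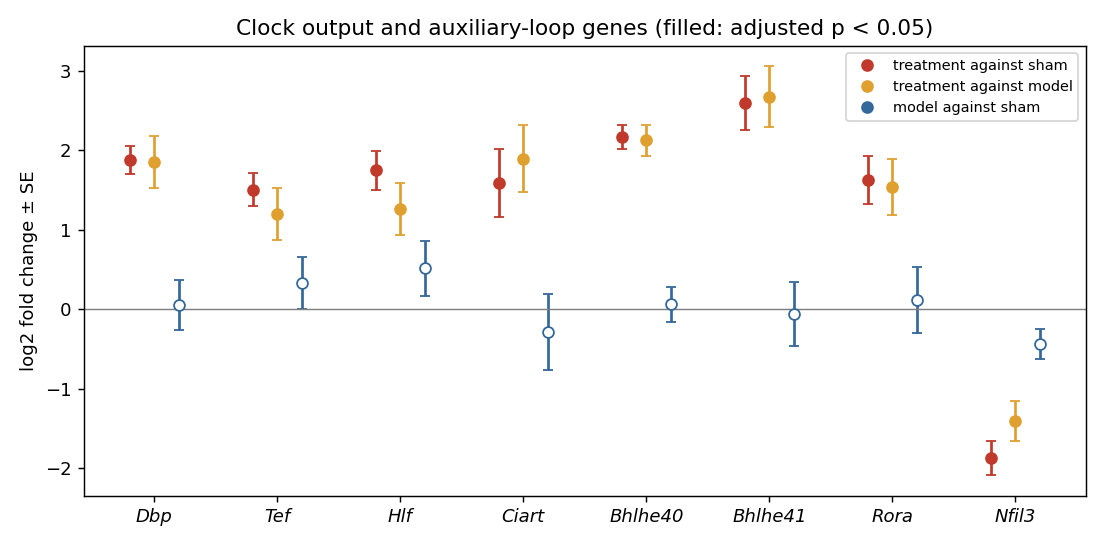
Log2 fold change ± SE (limma, n = 4 per group) of clock output and auxiliary-loop genes in 3 comparisons, filled where adjusted p is under 0.05. Both treatment comparisons place 7 genes above 0 and Nfil3 below, at -1.87 against sham and -1.40 against model, while no gene is filled in model against sham.

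Proteins that act on clock proteins were called about as often as all genes tested (36.8% against sham and 14.1% against model). Of 19 kinases, ligases and cofactors, 2 rose and 4 fell against sham and 0 rose and 3 fell against model, with medians of -0.09 and 0.10. Timeless, a replication fork protein named for a fly clock gene, had log2 fold changes of -2.74 against sham and -2.23 against model (adjusted p = 0.00951 against model). Usp7, a deubiquitinase that acts on CRY proteins, had -1.13 against sham and -1.21 against model, both past the test. In model against sham 0 of 19 passed, with Prkaa2 (-2.17 ± 0.73) and Usp2 (-1.05 ± 0.37) the smallest p. Cell division markers (7 of 7 measured) summed to 65.8 to 141 CPM in treatment, against 602 to 2702 in model and 1146 to 1981 in sham, and the part of dividing cells in the Timeless value was not tested. Among 11 measured corepressors and coactivators, 1 rose and 4 fell against sham and 0 rose and 1 fell against model. Ncor1, the corepressor that REV-ERB recruits, fell by 0.61 ± 0.13 against sham (adjusted p = 0.00636), and Wdr5 fell by 0.74. Sfpq fell by 0.69 against model. Wdr5 (-0.25) and Sirt1 (0.41) had the smallest p in model against sham, where 0 of 11 passed.

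Genes that the clock or its inducers control were mixed. For scale, 17.3% of all genes tested rose and 19.5% fell against sham. Against model 3.6% rose and 10.5% fell, and 0% passed in model against sham. Of 12 clock-controlled effectors, 2 rose and 4 fell against sham and 0 passed against model in limma, with medians of -0.04 and -0.06. Klf9, a stress-hormone and clock target, rose by 1.50 ± 0.29 against sham, and Alas1 of haem synthesis fell by 1.68 ± 0.34. Noct (-1.55, adjusted p = 0.0605) and Lpin1 (-0.60) had the smallest p against model, and Alas1 (-0.70) and Tspo (-0.40) in model against sham. Of 10 glucocorticoid-induced genes measured, 5 rose and 2 fell against sham and 1 rose and 1 fell against model. They did not share a direction: Cdkn1a rose by 2.63 and 2.55, and Fkbp5, a sensitive glucocorticoid target, had -1.32 and -1.20, past the test in both. Sgk1 (0.55) and Errfi1 (1.28) had the smallest p in model against sham, where 0 of 10 passed. Of 9 immediate early genes measured, 5 rose against sham, among them Nr4a2 (2.13 ± 0.33) and Fos (2.78 ± 0.43), which had the smallest p, and Fos alone rose against model (2.18 ± 0.57, adjusted p = 0.0390). Atf3 had 2.53 against model (adjusted p = 0.0618), and Nr4a2 (1.04) and Sik1 (-0.39) had the smallest p in model against sham, where 0 of 9 passed. Per1, which such signals induce, passed in neither treatment comparison.

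The authors' deposited lists of changed genes hold 422 genes for model against sham, 3363 for treatment against model and 5704 for treatment against sham. Members among them number 0, 2 (Nr1d1 and Nr1d2) and 5 (Nr1d1, Nr1d2, Per2, Per3 and Npas2). The authors' log2 fold changes of those 5 against sham run from 1.09 (Per3) to 2.70 (Npas2). Clock and Cry2, which passed here against sham, are not in that list, and the authors' deposited table gives Clock a log2 fold change of 0.94 (adjusted p = 4.43e-05) and Cry2 one of 0.77 (adjusted p = 0.00175).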

How the data were processed

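Total RNA of rat joint (4 treatment, 4 model and 4 sham libraries) was taken with Trizol, and the VAHTS Universal V5 kit was used for libraries, per the labels' protocols. The submitters' processing notes name fastp and DESeq2, without versions, and build mRatBN7.2. The sources used here name no aligner, counter or annotation release and do not state strand use. The authors deposited 3 tables of 8 libraries, each holding a normalised signal per gene, whose values proved to be whole reads times 1 factor per library and table. The authors' log2 fold changes and adjusted p-value columns were used only where named as theirs, and the deposited gene length, in bases, is of another kind of unit. Whole reads were recovered for 100% of values (tolerance 0.001 reads), and genes in both tables of a library differed by 0 reads. Treatment 3 was taken from the treatment against sham table. A line without a gene in each deposited table is not analysed here.

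Each comparison was tested within its own table with limma 3.58.1 in R 4.3.3 (trend and robust) after log2(value + 1), keeping genes that averaged 1 or more. This scale understates changes of low genes. Adjusted p is the Benjamini-Hochberg rate over all genes tested, called at 0.05. Levels across groups are CPM of recovered reads with TMM scaling (edgeR 4.0.16), and log2 values use a prior count of 2. Marker sums use library totals. Alternatives were edgeR and DESeq2 1.42.0 on recovered reads, limma-voom, other scalings, pseudocounts and filters, a fit over 12 libraries, the muscle score, and leaving out libraries. The fit was tested on simulated counts. The members, lists, tests and alternatives were chosen with earlier results of these data known, and no set test was run. Named were all 10 members, the output list and, of other lists, members with the smallest p. Some members of the other lists that this rule names are not reported here.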

Additional observations from a re-analysis of the deposited data

Results flagged for a closer look

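In 30 groups of 4 libraries (10 genes in 3 groups), a gap test (Dixon) flagged 4 values that stand apart from the others of their group. Chance flags about 1 in 20 groups. Model 2 had 15.8 CPM of Bmal1, against 5.82 to 7.51 in the other model libraries. The same library had 23.0 CPM of Npas2, against 1.66 to 4.34. Model 1 had 69.9 CPM of Per3, below the other model libraries at 101.1 to 102.8. Sham 1 had 103 CPM of Nr1d1, above the other sham libraries at 50.6 to 56.9.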

How the results depend on the processing

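The direction of all 7 members that rose in treatment against sham held in every alternative run, and the calls did too, except that of Cry2 without the muscle-rich libraries. There 7 to 8 members passed when a library was left out, 6 without the muscle-rich libraries and 9 with limma-voom, which added Bmal1 and a lower Cry1. In treatment against model, where 2 passed, 5 did with limma-voom, 4 with the muscle score as a covariate, 1 with the replicate block and 0 to 4 when a library was left out. Correlations of same-numbered deviations ran from -0.44 to 0.24. With 4 libraries per group they cannot settle whether the numbers pair the libraries, and the labels do not say. With the block, Nr1d2 against model had an adjusted p of 0.0547.

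Members of model against sham, none past the test, changed sign as follows; the cause was not tested. With the muscle score as a covariate the values were -0.17 for Bmal1, -0.29 for Clock, -1.49 for Npas2, -0.39 for Per1, -0.66 for Per2, 0.63 for Cry1, -0.55 for Cry2, -1.19 for Nr1d1 and -0.28 for Nr1d2. Per3 kept its sign in every alternative, with 0.00525 as its lowest value. Limma-voom gave -0.00423 for Bmal1. Without the muscle-rich sham 2 and sham 4, Cry1 was at 0.10 and Nr1d1 at -0.10. Leaving out single libraries gave -0.21 to 0.30 for Bmal1, -0.22 to 0.0492 for Cry1 and -0.15 to 0.41 for Nr1d1. In treatment against model Per1 was at -0.0506 with limma-voom.

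Of all genes, 0 passed in model against sham, 604 with DESeq2 and 0 to 171 when a library was left out (171 without model 1, 33 without sham 3, 2 without model 4). In treatment against model 2870 passed, 4956 with DESeq2, 5650 with limma-voom and 1178 to 4146 when a library was left out. In treatment against sham 7485 passed and 4603 without the muscle-rich libraries, while limma-voom called 4835 higher and 4822 lower. Scaling by library totals moved the median of all genes to -0.14 against model and -0.15 against sham, and split the calls against model into 342 higher and 2736 lower, compared with 731 and 2139. It left the same number of members called.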
